A study of Rattus norvegicus with 6 samples.

Results

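Levels of 10 genes of the meninges, the membranes that wrap the brain and reach the pituitary gland, were examined in pituitary RNA. The genes were Gjb2, Gjb6, Efemp1, Ptgds, Mgp, Dcn, Foxc1, Aldh1a2, Slc22a6 and Clec3b, which were chosen by name from knowledge of the meninges and from the change that Gjb2, Efemp1 and Clec3b show in these libraries. All 10 were found among the 33294 gene symbols of the files, and all 10 were among the 17292 genes that passed a filter on low counts and were tested. For Gjb2, Efemp1 and Clec3b the comparison of the groups is therefore a description and not a test.

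RNA came from the pituitary glands of male Sprague-Dawley rats aged 11 weeks, with 1 library per rat. The 3 nicotine rats were born to dams that carried a subcutaneous osmotic pump delivering nicotine tartrate at 6 mg/kg per day in saline, and the 3 control rats to dams whose pump held saline alone. The dams gave birth 13 days after the pump was placed, and the sources used here do not say whether it was removed at birth. How many dams the rats of a group came from is not given in the sources used here, so the p-values measure the spread between these rats, some of which may share a dam.

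The meninges are layers of fibroblasts, among them the arachnoid barrier, a sheet of cells sealed by tight junctions that separates the cerebrospinal fluid from the blood outside it. Arachnoid and pial fibroblasts are coupled by the connexins of Gjb2 and Gjb6, make the retinoic acid and matrix proteins of the brain surface, and carry organic anions out of the cerebrospinal fluid. The pituitary lies below the brain within meningeal coverings, so a dissected gland can bring meningeal cells with it.

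Library totals lay between 28318383 and 85977002 counts, and the median total of the nicotine libraries was 1.70 times that of the controls. Nicotine replicate 2 stood apart over the whole table, holding both the lowest level of 26.8% and the highest level of 26.9% of all genes, more than any other library. It was also highest for Lhb, a gonadotropin subunit, at 820 CPM where the rest held 75.6 to 223 CPM, and for Avp, vasopressin of the posterior lobe, at 129 CPM where the rest held 2.72 to 35.7 CPM. These genes were named after their values were seen. The labels' extraction text speaks of testes, whereas the tissue label is pituitary gland. The 8 hormone and identity genes of the anterior pituitary summed to 113950 to 176576 CPM per library, where CPM are counts scaled to a common library total, and 8 male germ cell markers summed to 0.0496 to 0.149 CPM, with 0 of the 8 passing the filter. The study's list of reads sequenced per library gives the larger numbers to control libraries, while in the files the larger totals stand under nicotine. The totals follow that list only if the group names are exchanged. The labels were used as given, so the sign of every difference between the groups rests on them.

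Promoters of the connexin pair and of Efemp1 are shown because Gjb2 and Gjb6 are close relatives encoded on the same strand of chromosome 15, of which Gjb2 was noticed for its change and Gjb6 was not, and Efemp1 had the lowest fold change of the 10 genes. RefSeq promoter sequences of the GRCr8 assembly, 250 bases before to 50 bases after the start of transcription, were matched by symbol for 6 of the 10 genes, in 7 entries. The first letter is the 5′ end on the strand of the gene, and capitals mark the GC box GGGCGG, read on either strand, and the run TTAAAAG.
Gjb2, chr15:35381904-35382203, minus strand: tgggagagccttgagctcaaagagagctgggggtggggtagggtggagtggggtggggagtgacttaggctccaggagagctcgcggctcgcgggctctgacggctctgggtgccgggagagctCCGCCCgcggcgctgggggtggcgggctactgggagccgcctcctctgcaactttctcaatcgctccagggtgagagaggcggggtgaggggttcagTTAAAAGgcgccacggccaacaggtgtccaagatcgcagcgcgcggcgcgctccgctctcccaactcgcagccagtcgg
Gjb6, chr15:35410089-35410388, minus strand: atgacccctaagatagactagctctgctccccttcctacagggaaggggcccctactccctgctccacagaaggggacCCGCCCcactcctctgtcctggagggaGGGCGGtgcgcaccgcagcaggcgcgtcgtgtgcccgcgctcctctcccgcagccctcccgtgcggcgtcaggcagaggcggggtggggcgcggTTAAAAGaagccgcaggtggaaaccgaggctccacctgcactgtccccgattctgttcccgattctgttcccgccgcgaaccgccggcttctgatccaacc
Efemp1, chr14:106811614-106811913, plus strand: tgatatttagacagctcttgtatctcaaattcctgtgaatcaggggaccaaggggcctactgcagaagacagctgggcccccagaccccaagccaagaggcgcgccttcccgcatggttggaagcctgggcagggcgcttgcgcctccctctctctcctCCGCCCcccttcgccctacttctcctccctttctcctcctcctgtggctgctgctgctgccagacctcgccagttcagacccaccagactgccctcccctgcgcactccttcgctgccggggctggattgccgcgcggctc

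The run TTAAAAG began 29 bases before the start in the Gjb2 promoter and 51 bases before it in the Gjb6 promoter shown, and no match stood in the Efemp1 promoter. The run was searched for after these promoters had been read, and 5.30% of 33469 rat promoters of the same length held it on either strand. The GC box, which binds transcription factors of the Sp family, was held by all 7 entries and by 33.1% of rat promoters. The 2 connexin promoters shown each held 25 CpG sites against a median of 7 over all promoters, and that of Efemp1 held 14. The second Gjb6 entry held 5 CpG sites and no TTAAAAG run. All motifs were searched on both strands. No entry held the forkhead sequence GTAAACA, found in 3.78% of promoters, the TATA sequence TATAAA, found in 14.2%, or the AP-1 sequence TGACTCA, found in 4.63%. The E box CAGGTG stood in the promoters of Gjb2, Gjb6, Ptgds and Aldh1a2 and in 18.8% of all promoters, and the nuclear receptor element AGGTCA in that of Ptgds and in 16.2%. A match to such letters is a description of the sequence and not a binding site.

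Among the gap junction genes, Gjb2, which encodes connexin 26, was at 2.55, 3.30 and 4.94 CPM in nicotine replicates 1, 2 and 3, and at 5.32, 12.0 and 7.53 CPM in control replicates 1, 2 and 3. CPM here are scaled by TMM factors, which correct library totals for a few very abundant genes. Each nicotine library lay below each control library, although nicotine replicate 3 and control replicate 1 were close. Nicotine rats averaged 3.60 ± 1.22 CPM and control rats 8.29 ± 3.41 CPM (SD, n = 3 each), and the log2 fold change was -1.22 with a standard error of 0.33.

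Gjb6 encodes connexin 30, which pairs with connexin 26 in the same junctions. It was at 24.4, 31.0 and 34.2 CPM after nicotine and 29.8, 36.4 and 33.0 CPM in controls. The groups overlapped, with a log2 fold change of -0.15 (standard error 0.18, edgeR adjusted p = 0.881), or -0.02 without nicotine replicate 1 and -0.26 when nicotine replicate 3 was left out. For every 100 Gjb6 counts nicotine replicates 1 to 3 held 10.5, 10.6 and 14.5 Gjb2 counts, and control replicates 1 to 3 held 17.8, 33.0 and 22.8. This ratio is free of library scaling. It was 11.9 ± 2.26 (SD, n = 3) against 24.5 ± 7.73 (SD, n = 3), and it rests on Gjb2, which was noticed for its change.

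**Figure D1:**
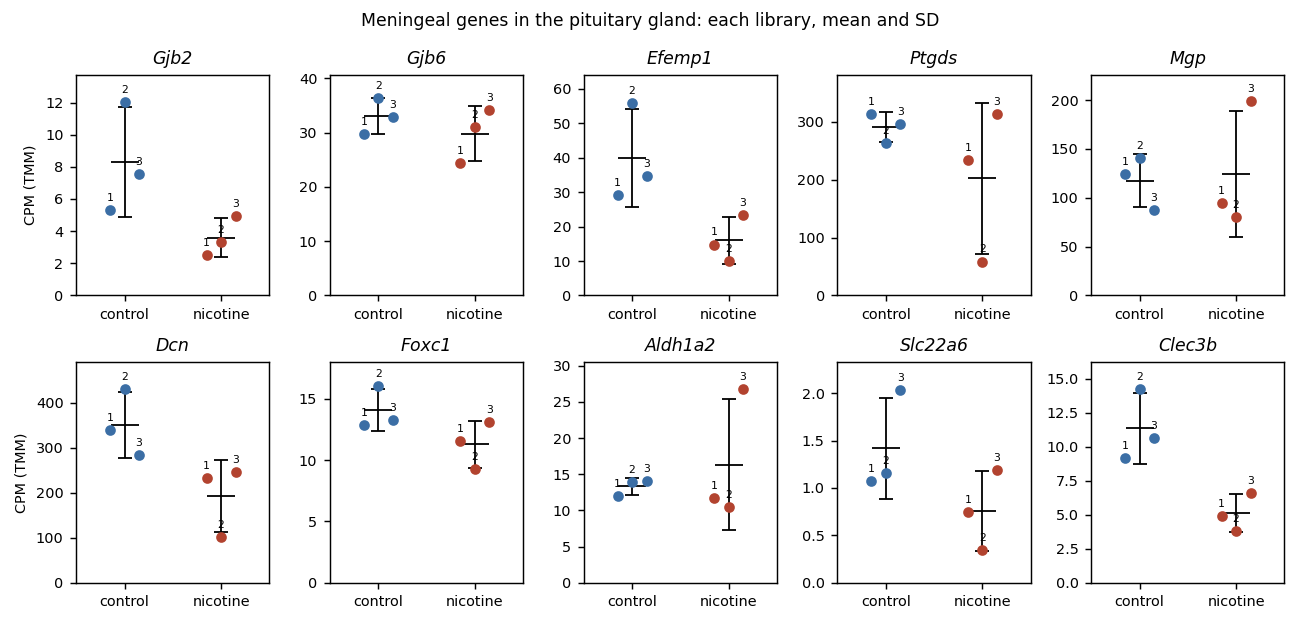
CPM after TMM scaling (vertical axes, each from 0) of the 10 meningeal genes in every library, with control libraries in blue, nicotine libraries in red and the replicate number beside each point. Horizontal bars are means and whiskers are SDs of 3 rats. For Gjb2, Efemp1, Dcn and Clec3b the nicotine points all lie below the control points, and for Ptgds nicotine replicate 2 lies far below the other 5 libraries.

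Of the matrix and secreted proteins, Efemp1 encodes fibulin-3, a glycoprotein of the extracellular matrix. It was at 14.8, 9.92 and 23.3 CPM after nicotine and 29.1, 56.0 and 34.8 CPM in controls. Nicotine replicate 2 was lowest and control replicate 2 highest, and the groups did not overlap. The means were 15.998 ± 6.75 CPM (SD, n = 3) and 39.97 ± 14.2 CPM (SD, n = 3), a log2 fold change of -1.33 (standard error 0.32).

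Clec3b encodes tetranectin, a secreted protein that binds plasminogen. It was at 4.94, 3.80 and 6.61 CPM after nicotine and 9.16, 14.2 and 10.6 CPM in controls, so its libraries stood in the same order as those of Efemp1. The groups did not overlap. The means were 5.12 ± 1.41 CPM (SD, n = 3) and 11.3 ± 2.61 CPM (SD, n = 3), with a log2 fold change of -1.16 (standard error 0.26).

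Dcn encodes decorin, a small proteoglycan that coats collagen fibrils, and it was not among the genes noticed for their change. It was at 233, 101 and 246 CPM after nicotine and 339, 430 and 284 CPM in controls. Nicotine replicate 2 held less than any other library, and the groups did not overlap. The log2 fold change was -0.86 (standard error 0.30, edgeR adjusted p = 0.762), or -0.56 without nicotine replicate 2, and an exact two-sided permutation test gave p = 0.1, the smallest that 3 against 3 rats allow. The difference did not pass the test over all genes.

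Ptgds encodes the prostaglandin D synthase that is secreted into the cerebrospinal fluid. It was at 234, 58.6 and 314 CPM after nicotine and 314, 263 and 295 CPM in controls. The 5 libraries other than nicotine replicate 2 stood close together, and nicotine replicate 2 was at the foot of the range. The log2 fold change was -0.52 (standard error 0.44, edgeR adjusted p = 0.843) and became -0.09 without that library.

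Mgp encodes matrix Gla protein, an inhibitor of calcification. It was at 94.6, 80.8 and 199 CPM after nicotine and 124, 141 and 87.8 CPM in controls. Nicotine replicate 3 was the highest library and replicate 2 the lowest, so the nicotine libraries enclosed the controls. The log2 fold change was 0.08 (standard error 0.31, edgeR adjusted p = 0.966), and it became -0.42 without nicotine replicate 3.

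The remaining genes are a transcription factor, a retinoic acid enzyme and a carrier. Foxc1, a forkhead transcription factor needed to form the meninges, was at 11.6, 9.25 and 13.1 CPM after nicotine and 12.9, 16.0 and 13.3 CPM in controls. Only nicotine replicate 3 reached into the control range. Its fold change on the log2 scale was -0.32 (standard error 0.20, edgeR adjusted p = 0.827), or -0.20 without nicotine replicate 2.

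Aldh1a2 encodes a retinaldehyde dehydrogenase that makes retinoic acid. It was at 11.7, 10.5 and 26.8 CPM after nicotine and 12.0, 13.9 and 14.1 CPM in controls. Nicotine replicate 3 stood well above the other 5 libraries, and the other 2 nicotine libraries lay below the controls. The log2 fold change of 0.29 (standard error 0.32, edgeR adjusted p = 0.871) became -0.27 without nicotine replicate 3.

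Slc22a6 encodes the organic anion transporter OAT1. Nicotine replicates 1 to 3 held 35, 32 and 72 counts and control replicates 1 to 3 held 29, 61 and 77, which is 0.743, 0.347 and 1.19 CPM against 1.07, 1.15 and 2.03 CPM. Nicotine replicate 3 lay within the control range, and the other 2 nicotine libraries below it. The log2 fold change was -0.96 (standard error 0.46, edgeR adjusted p = 0.810), and it was -0.54 without nicotine replicate 2, -0.61 without control replicate 3 and -1.48 without nicotine replicate 3. In bulk tissue, fewer cells of a type and less RNA per cell cannot be told apart, for this gene as for the others.

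**Figure D2:**
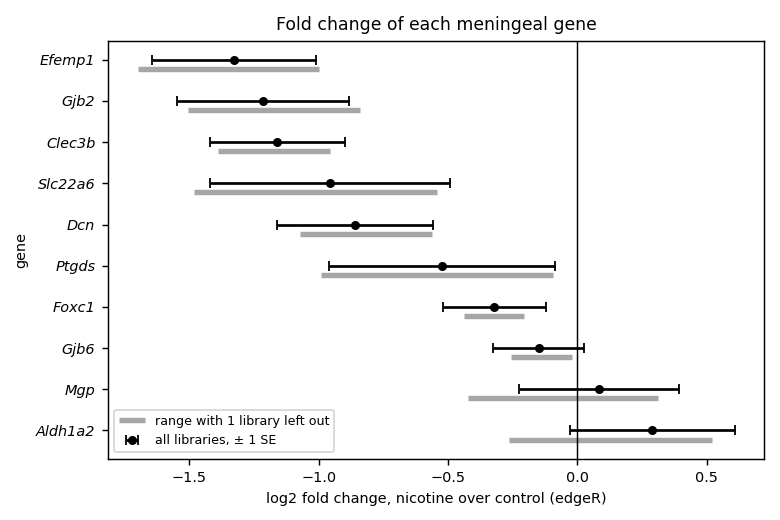
Log2 fold change of nicotine over control (horizontal axis) for each of the 10 genes, as edgeR's estimate with 1 standard error (black) and as the range of estimates with 1 library left out in turn (grey). Gjb2, Efemp1 and Clec3b were noticed for this change. The ranges of Mgp and Aldh1a2 cross 0, and those of the other 8 genes stay below it.

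Of the 10 genes, 0 passed edgeR's quasi-likelihood test with an adjusted p below 0.1 and more than 1.5-fold change, as did 0% of all genes tested. At an unadjusted p under 0.05, 4 were lower after nicotine (Gjb2, Efemp1, Dcn and Clec3b) and 0 were higher, while over all genes 520, or 3.01%, were lower and 542, or 3.13%, were higher. Gjb2, Efemp1 and Clec3b were noticed for this change, so nothing is read from their p-values. Dcn, with an unadjusted edgeR p of 0.0158, was the only one of the 4 not noticed for its change. DESeq2, the tool of the study's methods, called 61 genes over the whole table, 43 of them lower, which is 0.239% of the genes it tested. The 3 called among the 10 genes were Gjb2, Efemp1 and Clec3b, the same 3 that were noticed for their change, so nothing is read from that count.

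In 4 of the 10 genes every nicotine library lay below every control library, against 5.14% of all genes. A log2 fold change below 0 was found for 8 of the 10, against 49.0% of all genes, and 5 were lower by more than 1.5-fold, against 6.04%. These counts include the 3 noticed genes. Of the other 7, 5 were lower, and 1, Dcn, did not overlap between the groups. The median log2 fold change was -0.69 over the 10 genes and -0.32 over the 7, beside 0.0070 over all genes tested. The biological coefficient of variation of the 10 genes, edgeR's measure of the spread between rats of a group, had a median of 27.7% against 20.8% over all genes, and it was above that level for 8 of the 10.

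How the 10 genes varied across the libraries was examined next. For each gene the log2 CPM of a library was set against the gene's mean over the 6 libraries. The mean of these deviations over the 10 genes was -0.37, -0.88 and 0.24 in nicotine replicates 1, 2 and 3, and 0.16, 0.55 and 0.30 in control replicates 1, 2 and 3. Nicotine replicate 3 thus stood among the controls, and nicotine replicate 2 stood lowest.

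Nicotine replicate 2 held the lowest level of 8 of the 10 genes, whereas 26.8% of all genes had their lowest level there. The exceptions were Gjb2 and Gjb6, which were lowest in nicotine replicate 1. Control replicate 2 held the highest level of 6 of the 10 genes, where 8.94% of all genes had their highest. Nicotine replicate 3 was highest for 3 genes, Ptgds, Mgp and Aldh1a2, and control replicate 3 for Slc22a6. Without the 3 noticed genes the mean deviations were -0.19, -0.85 and 0.39 after nicotine and 0.14, 0.31 and 0.21 in controls, so that the nicotine libraries enclosed the controls.

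**Figure D3:**
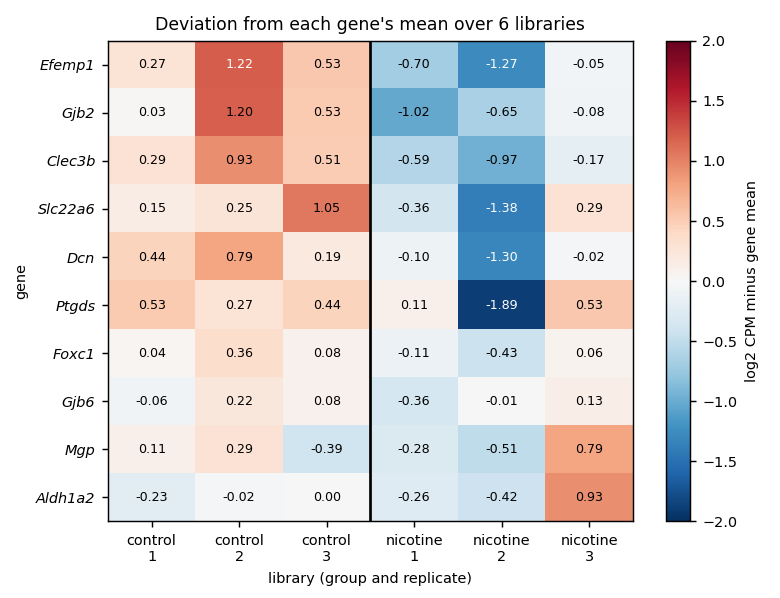
Deviation of each library (columns) from each gene's mean over the 6 libraries, as log2 CPM (colour scale and printed values), for the 10 genes (rows, ordered by the difference between group means). Control replicate 2 is red for 9 of the 10 genes and nicotine replicate 2 is below 0 for all 10, down to -1.89 for Ptgds, while nicotine replicate 3 lies between -0.17 and 0.93.

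Over the 45 pairs of the 10 genes, Pearson's r of log2 CPM across the 6 libraries had a median of 0.61 and ranged from 0.12 to 0.99. All 45 were above 0, and 15 pairs, or 33.3%, were above 0.8, against 4.61% of all pairs of genes tested, whose median r was -0.001. With deviations from the group means, which take the difference between the groups out, the median was 0.66 and 43 of 45 pairs were above 0. The pairs below 0 were Gjb6 with Ptgds and Gjb6 with Dcn. The points of a pair share their library, its depth and its dissection. These counts include pairs with Gjb2, Efemp1 or Clec3b. Among the 7 genes not noticed for their change, with 21 pairs, the median r was 0.50. Above 0.8 among those were Ptgds with Dcn, Foxc1 and Slc22a6, Dcn with Foxc1, and Mgp with Aldh1a2. Nicotine replicates 1 and 2 were the libraries farthest from the median of Ptgds. Without them r of Ptgds was -0.781 with Dcn, -0.968 with Foxc1 and -0.041 with Slc22a6, so these relations rest on those libraries.

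The tightest pair was Efemp1 and Clec3b, with r = 0.99, and both were chosen for their change. Of the pairs among the other 7 genes, Dcn and Foxc1 had the highest r, 0.953 (exact permutation p = 0.00833, 0.0625 after Benjamini-Hochberg adjustment over the 45 pairs), and Spearman's rho was 0.829 (exact permutation p = 0.0583, adjusted 0.202). Without the 2 libraries farthest from the median of Dcn, nicotine replicate 2 and control replicate 2, r was 0.532, so the relation leans on those libraries. In all, 13 of 45 pairs had an exact p under 0.05 and 0 had an adjusted p under 0.05. A gene chosen for its change was in 10 of the 13, and 3 of the 21 pairs among the other 7 genes had an exact p under 0.05. The share of all pairs of genes with such a p was not computed, so nothing is read from these counts.

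Mgp and Aldh1a2 each had their highest r with the other, at 0.835 (exact permutation p = 0.0306, adjusted 0.138) and rho = 0.657 (exact permutation p = 0.175, adjusted 0.342). By rho, Aldh1a2 was closer to Slc22a6, at 0.943, and Mgp to Ptgds, at 0.714. The r of Mgp and Aldh1a2 was 0.0606 without nicotine replicates 2 and 3, on which the relation rests. The connexins Gjb2 and Gjb6 had r = 0.826 (exact permutation p = 0.0403, adjusted 0.163) and rho = 0.714 (exact permutation p = 0.136, adjusted 0.306). Without nicotine replicate 1 and control replicate 2, their r was 0.331. Gjb2 was noticed for its change, so nothing is read from the p-values of this pair.

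Set against the mean of the other 9 genes, Foxc1 followed the common profile most closely, with r = 0.967, and Efemp1, Clec3b and Dcn followed with 0.938, 0.906 and 0.898. Slc22a6, Ptgds and Gjb2 came next at 0.845, 0.797 and 0.777. Mgp, Gjb6 and Aldh1a2 followed it least, at 0.556, 0.550 and 0.437, and 80.4%, 79.1% and 73.2% of genes outside the set had a lower r. The profile holds genes chosen for their change, so likeness to it partly restates that choice. With deviations from the group means Aldh1a2 reached 0.882 and Mgp 0.819, while Gjb6 stayed at 0.389.

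**Figure D4:**
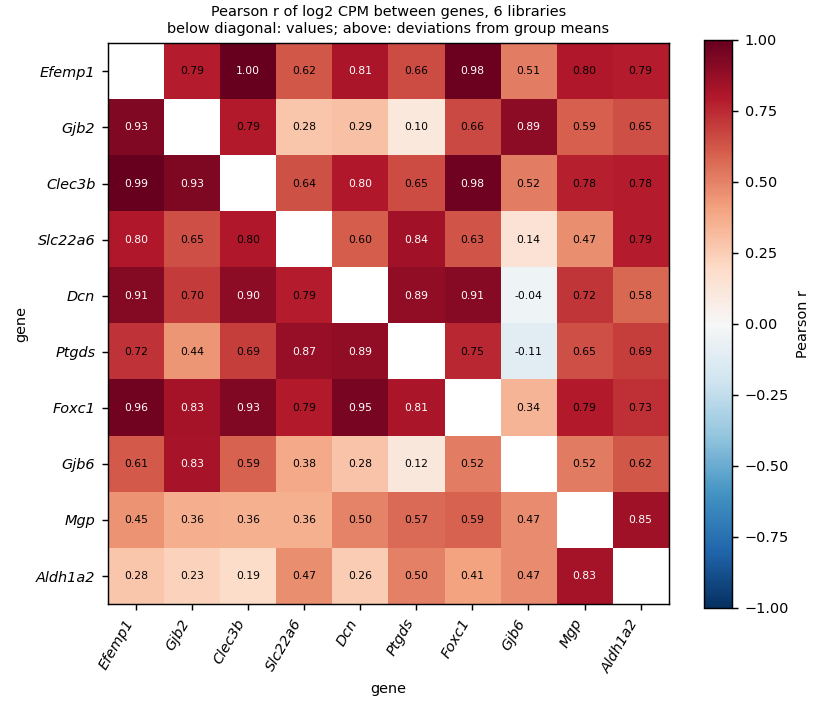
Pearson's r of log2 CPM over the 6 libraries for each pair of the 10 genes (rows and columns, colour scale from -1 to 1), with values over all libraries below the diagonal and deviations from the group means above it. Efemp1, Clec3b, Foxc1 and Dcn form the darkest block, from 0.90 to 0.99 below the diagonal, and Aldh1a2 is at 0.50 or less with all but Mgp until the group means are taken out.

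Of 11496 genes with a mean of at least 5 CPM, 102 had r above 0.9 with the mean profile of the 10 genes and 112 had r below -0.9, so genes close to the profile were no more frequent than genes opposite to it. The 8 nearest were Tspan11, a tetraspanin, Fn1, fibronectin, Gask1b, Aamdc, Gpc3, a cell surface heparan sulfate proteoglycan, Fhl2, Slfn2 and Sult1a1, a sulfotransferase, with r from 0.975 to 0.986 over the 6 libraries. Fn1 was at 8.38, 5.31 and 17.6 CPM after nicotine and 14.5, 29.8 and 23.1 CPM in controls, and Gpc3 at 31.8, 26.7 and 48.3 CPM against 52.5, 67.5 and 51.4 CPM. Their direction partly restates the profile, which holds Gjb2, Efemp1 and Clec3b. The 8 nearest genes by deviations from the group means shared 0 genes with these, although the 8 named had r of 0.952 to 0.993 there as well.

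Other genes ascribed to the same cells were counted in the same fit. These lists and those further below were chosen with earlier results of these data known, so their counts and calls are a description. Of 11 further genes of the arachnoid barrier, all 11 were tested. In this list 5 were lower after nicotine at an unadjusted p under 0.05 and 0 were higher, and the median log2 fold change of the 11 was -0.37. Cldn11, the claudin of arachnoid tight junctions, was at 36.1, 28.9 and 55.8 CPM after nicotine and 70.1, 126 and 103 CPM in controls. Its groups did not overlap, and its log2 fold change was -1.31 (standard error 0.27, edgeR adjusted p = 0.503), which DESeq2 called at an adjusted p of 0.00205. Of the 11, 7 had a log2 fold change below 0 and 4 above it. Those above 0 were Cdh1, Tjp1 and Ocln, which encode junction proteins, at 0.04, 0.14 and 0.05, and Abcc4 at 0.38. The groups overlapped for each of these genes.

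Of 9 transcription factors of the meninges and their precursors, 8 were tested. Among them 5 were lower and 1 higher at an unadjusted p under 0.05, and the median log2 fold change was -0.995. Foxd1, a forkhead factor of stromal precursors, was at 4.82, 3.75 and 6.30 CPM after nicotine and 7.94, 11.3 and 13.0 CPM in controls. Foxd1 had a log2 fold change of -1.13 (standard error 0.26, edgeR adjusted p = 0.702, DESeq2 adjusted p = 0.0214), and DESeq2 called it. Osr1 and Zic2 had log2 fold changes of -1.07 and -1.13.

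Among leptomeningeal fibroblast genes 18 of 19 were tested, with 3 lower and 1 higher at an unadjusted p under 0.05 and a median of -0.48, which moved to -0.24 without nicotine replicate 2, or to -0.72 when nicotine replicate 3 was left out. Of the 18 tested, 16 had a log2 fold change below 0 and 2 above it. The 3 most abundant went different ways. Igfbp2, an insulin-like growth factor binding protein, was at 213, 342 and 208 CPM after nicotine and 206, 105 and 61.5 CPM in controls, without overlap and with a log2 fold change of 1.03. Ogn, osteoglycin, had a log2 fold change of -0.58, and Bmp6 one of -0.11. The summed level of the list was 419 to 508 CPM after nicotine and 324 to 457 CPM in controls. Igfbp2 alone held 61.5 to 342 CPM of it, so the sum does not show the direction of most genes of the list.

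Relatives of the 10 genes in other families were counted in the same way. Of 18 other connexin genes 9 were tested, 0 differed at an unadjusted p under 0.05 in either direction and the median log2 fold change was 0.11, with Gja1, connexin 43, at 0.47. Of 11 genes of retinoic acid synthesis and binding, 1 was lower, Crabp2, which is also in the arachnoid list, and the median was -0.11, with Rbp4 and Aldh1a1 at 0.02 and 0.03. Of 14 fibulins and small proteoglycans 13 were tested, 4 were lower and 3 higher and the median was -0.03, with Prelp at 0.62, Fbln1 at -0.83 and Bgn at -0.03. Of 11 other organic ion carriers 9 were tested, and 1 was lower.

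**Figure D5:**
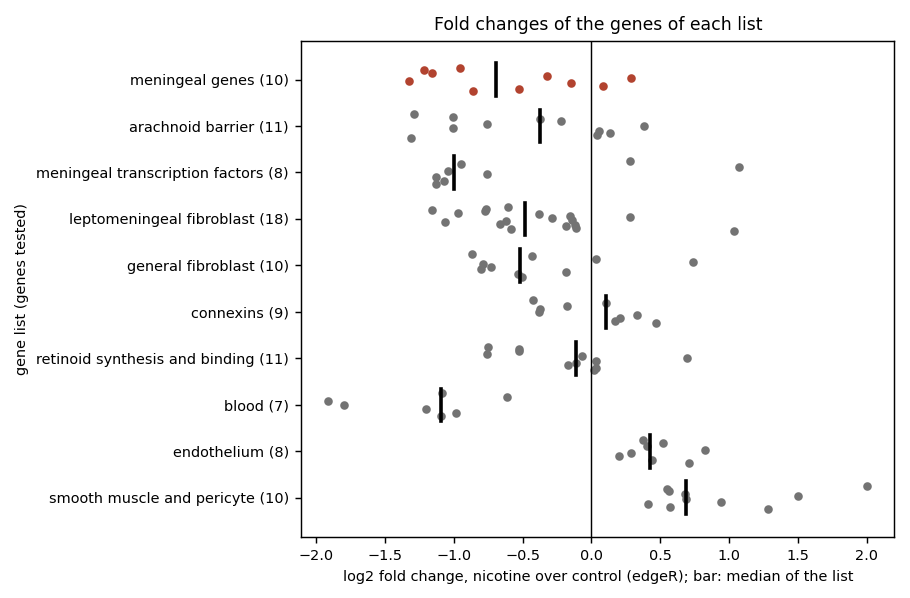
Log2 fold change of nicotine over control (horizontal axis) for every tested gene of the meningeal genes (red) and of 9 other lists (grey), with the number of genes tested in parentheses and a black bar at each list's median. The arachnoid, meningeal and fibroblast medians lie between -0.37 and -0.995, the connexin median at 0.11, and the endothelial and smooth muscle medians at 0.42 and 0.69.

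Markers of other cells that a dissected gland can hold were counted too, and 0 genes of these lists passed edgeR's adjusted test. Of 10 general fibroblast genes, which connective tissue anywhere expresses, 6 were lower at an unadjusted p under 0.05 and 0 higher, with a median of -0.52. Col1a2, Col3a1 and Pi16 were at -0.51, -0.54 and -0.18 on the log2 scale, and the list summed to 228 to 338 CPM after nicotine and 310 to 442 CPM in controls. The median r with the mean profile of the 10 genes was 0.88 for this list and 0.74 for blood. It was 0.49 for the arachnoid list, 0.81 for the leptomeningeal list and 0.86 for the meningeal transcription factors. The pattern was thus not particular to genes of the meninges. All 7 blood genes were lower at that threshold, with a median of -1.09, and the list summed to 2530 to 7848 CPM after nicotine and 6717 to 14222 CPM in controls. Like most of the meningeal genes, Hba-a1, a hemoglobin, was lowest in nicotine replicate 2, at 1580 CPM, as were Hbb, Alas2, Ptprc and Ahsp. The Hba-a1 level in nicotine replicate 3, 5000.2 CPM, was above that of control replicate 1, 4068 CPM. S100a8 and S100a9 were instead lowest in control replicate 2, at 1.02 and 3.92 CPM, below every nicotine library.

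Of 10 smooth muscle and pericyte genes, 4 were higher and 0 lower at that unadjusted threshold, with a median of 0.69, which became 0.42, with 2 higher and 1 lower, without nicotine replicate 3. Their summed level was 88.1, 65.3 and 237 CPM in nicotine replicates 1, 2 and 3 and 58.4 to 73.7 CPM in controls, so the library that was highest for Mgp and Aldh1a2 was also highest for this list. Tagln, an actin-binding protein of smooth muscle, was at 138 CPM in that library and 10.6 to 32.4 CPM in the other 5. Acta2, smooth muscle actin, was called by DESeq2, with 2.74, 2.21 and 2.54 CPM after nicotine and 0.258, 0.984 and 0.449 CPM in controls. Of 8 endothelial genes 4 were higher and 0 lower, with a median of 0.42 and summed levels of 177 to 287 CPM against 144 to 192 CPM.

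Of 8 choroid plexus genes 0 differed at that threshold, with a median of 0.50. Ttr, transthyretin, the defining transcript of that tissue, was at 0 to 0.909 CPM per library. Of 9 posterior lobe and glial genes tested 3 were higher and 0 lower, with a median of 0.13. The list summed to 186 to 359 CPM after nicotine and 114 to 216 CPM in controls. Among the 3 were Avp and Oxt. Control replicate 1, at 32.3 and 31.2 CPM, was close to nicotine replicates 1 and 3, at 31.6 to 35.7 CPM. Control replicate 3 held 2.72 and 2.67 CPM, and nicotine replicate 2 held 129 and 73.9 CPM. Of 5 intermediate lobe genes 1 was lower, with a median of -0.70, and of 6 folliculostellate and stem cell genes 0 differed, with a median of 0.17. Of the 8 anterior pituitary identity genes 1 was higher, with a median of 0.30. With 1 library left out in turn, the number lower at that threshold ranged from 2 to 5 for the arachnoid list, from 2 to 6 for the transcription factors, from 0 to 7 for the leptomeningeal fibroblasts, from 2 to 6 for the general fibroblasts and from 2 to 5 for blood. The lowest numbers came without control replicate 2, except for blood, where they came without control replicate 3. The number higher ranged from 2 to 8 for smooth muscle, with the 2 found without nicotine replicate 3, and from 2 to 6 for endothelium. The part of blood, vessel, connective tissue or lobe content in the differences of the 10 meningeal genes was not tested.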

How the data were processed

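Whole-number counts per gene symbol were deposited by the authors, who mapped stranded paired reads to the rat genome rn7 and assigned them to the UCSC ncbiRefSeq genes without normalization. The submitters' processing notes name HISAT2 2.1.0, featureCounts and DESeq2 2.11.40.7. Whether single reads or pairs were counted is not given in the sources used here. Group and replicate were taken from the sample titles.

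Counts were analysed with edgeR 4.0.16, DESeq2 1.42.0 and limma 3.58.1 under R 4.3.3. filterByExpr kept 17292 of 33294 genes, totals of 28318383 to 85977002 counts were scaled by TMM, and nicotine was compared with control by edgeR's quasi-likelihood test over all genes, with Benjamini-Hochberg adjustment and the thresholds of the study (adjusted p under 0.1, fold change over 1.5). Log2 CPM used a prior count of 2. Genes whose exons overlap or that have near-identical copies may share reads.

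The 10 genes, the lists and the tests were chosen with earlier results of these data known. The genes named are the 10 genes, the 3 most abundant tested genes of a list, list genes called by edgeR or DESeq2, and the 8 genes closest to the mean profile. Not every gene allowed by that rule is named, and some single genes of the lists are not reported here. The procedure was tested on simulated data. Alternatives were DESeq2, other scalings, filters and thresholds, limma voom with sample weights, the replicate number as a block, Spearman's rho, and leaving out each library. The older edgeR fit, the DESeq2 fits without each library or with the block, and the list counts without each library were added after seeing the data.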

Additional observations from a re-analysis of the deposited data

How the results depend on the processing

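The precision is limited by 3 rats per group and not by depth, except for Slc22a6, with 29 to 77 counts per library. Over all genes edgeR called 0. DESeq2 called 61, library totals alone 1, no filter 2, limma voom 1 and the replicate block 2, and leaving out 1 library gave 0 to 9, with 9 without nicotine replicate 3, 4 without control replicate 2 and 1 without nicotine replicate 2. Of the 10 genes DESeq2 called 3, Gjb2, Efemp1 and Clec3b, and every edgeR or limma setting called 0. DESeq2 called 3 with the replicate block, 0 without control replicate 2, and 2 or 3 without any other library, where Gjb2 was the gene lost when control replicate 3, nicotine replicate 1 or nicotine replicate 2 was left out. Deviations of same-numbered libraries correlated at 0.03, -0.20 and -0.08, so no pairing by replicate number was seen. With 3 libraries per group these values cannot exclude a pairing.

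The median log2 fold change of the 10 genes was -0.46 with limma voom and -0.87 with the replicate block, and from -1.03 (without nicotine replicate 3) to -0.37 (without nicotine replicate 2) with 1 library left out. When each gene's fold change was compared with its main value, 133 values kept direction and side of the threshold, 3 passed it with DESeq2 and 4 changed sign. These were Mgp, at -0.019 with the replicate block, -0.42 without nicotine replicate 3 and -0.09 without control replicate 3, and Aldh1a2, at -0.27 without nicotine replicate 3. Without nicotine replicate 2, Mgp was at 0.31 and Aldh1a2 at 0.52. The cause was not tested. The median pairwise r was 0.49 with library totals alone, 0.50 without Gjb2, Efemp1 and Clec3b, and 0.53 (without nicotine replicate 2) to 0.81 (without nicotine replicate 3) with 1 library left out.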
